A study of Mus musculus with 8 samples.

Results

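The genes described here are 3 FoxO transcription factors (Foxo1, Foxo3 and Foxo4) and 6 genes known as their targets or neighbours in muscle wasting and nutrient stress (Trim63, Fbxo32, Txnip, Sesn1, Sesn3 and Ddit4). They were chosen by symbol, with earlier results of these data known, as 9 of 48440 entries in a table of read counts per gene. All 9 were among the 13771 genes that passed the filter on low counts. The counts come from cardiomyocytes, the contractile cells of the heart, purified from the hearts of 2-day-old C57BL6/J mice. A brother and a sister were taken from each of 4 litters, so that the 8 libraries fall into 4 males and 4 females, or into 4 litters of 2. All pups were of 1 strain and age, and the labels name no genetic change or treatment. The 8 hearts are separate animals, but littermates share a dam and may share a dissection, and the labels do not separate these. The design implies a comparison of the sexes and one of the litters.

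FoxO factors are transcription factors held in the cytoplasm when insulin or growth factor signalling through Akt phosphorylates them, and they enter the nucleus when that signal falls. In striated muscle they are known for switching on the genes of protein breakdown, among them the ubiquitin ligases Trim63 (MuRF1) and Fbxo32 (atrogin-1, also called MAFbx), and genes that lower nutrient use and TORC1 activity. TORC1 is the kinase complex that couples amino acids and energy to growth. Much of FoxO control acts on the protein, so transcript levels of the factors are only 1 layer of it.

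A RefSeq promoter on GRCm38.p6 was found for 7 of the 9 genes, covering 250 bases before and 50 after an annotated start, while Foxo4 and Fbxo32 were not matched. The letters GTAAACA, the core that FoxO factors bind, were searched on both strands and lie in the windows of 3 genes, Trim63, Txnip and Sesn1, against 3.65% of all 32851 promoter windows of that length. Positions count from the start, with -1 the base just before it. Shown are the stretches of these 3 windows that hold a match, because Trim63 and Txnip are the most abundant of the 9 genes per length and Txnip varied most between litters. Capitals mark GTAAACA or its reverse complement TGTTTAC and, in Txnip and Trim63, a second match described below.
Txnip, chr3:96557707-96557956, plus strand, 250 bases before the start: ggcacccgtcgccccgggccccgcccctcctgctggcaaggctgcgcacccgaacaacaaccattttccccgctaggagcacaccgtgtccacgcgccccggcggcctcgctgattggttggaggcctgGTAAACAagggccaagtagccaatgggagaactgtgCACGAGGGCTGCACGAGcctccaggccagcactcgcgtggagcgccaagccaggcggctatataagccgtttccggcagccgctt
Trim63, chr4:134314870-134315119, plus strand, 250 bases before the start: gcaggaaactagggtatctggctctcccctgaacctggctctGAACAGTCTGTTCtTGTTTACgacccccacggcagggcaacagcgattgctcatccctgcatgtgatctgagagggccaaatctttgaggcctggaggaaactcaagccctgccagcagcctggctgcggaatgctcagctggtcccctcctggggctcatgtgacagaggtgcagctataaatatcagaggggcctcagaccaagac
Sesn1, chr10:41810586-41810612, plus strand, around a match after the first of 2 annotated starts: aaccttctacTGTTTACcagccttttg
In Txnip the match stands at -121 to -115 on the gene's strand, and in Trim63 at -194 to -188 on the opposite one. In Sesn1 it lies just after the start, at 23 to 29. The E-box CACGTG (7.15% of windows) and the glucocorticoid receptor palindrome (AGAACA, 3 bases, TGTTCT; 0.00913% of windows) matched no window of the 7 genes searched, which says only that these letters are not there. A pair of looser motifs was searched only after the sequences had been read. CACGNG repeated after 5 bases, the layout of a carbohydrate response element, lies in the Txnip stretch at -85 to -69 and in 0.0487% of all windows, and GAACA with TGTTC after 3 bases in the Trim63 stretch at -208 to -196 and in 0.0578%. The last base of the latter is separated by 1 base from the FoxO letters. Since they were picked to fit, these matches carry no weight as evidence, and a match describes letters, not a bound site.

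On GRCm38 with the GENCODE M21 annotation, Foxo1 lies at chr3:52268336-52353221 and Txnip at chr3:96557957-96561883, both on the plus strand. Foxo3 (chr10:42181841-42276755, minus strand), Sesn1 (chr10:41809935-41908424, plus strand) and Ddit4 (chr10:59949669-59951834, minus strand) share chromosome 10. Trim63 lies at chr4:134315120-134329629 (plus strand), Fbxo32 at chr15:58175879-58214932 (minus strand), Sesn3 at chr9:14275067-14333101 (plus strand) and Foxo4 on the X chromosome at chrX:101254528-101260873 (plus strand). Antisense transcripts overlap exons of 3 of the genes. The largest overlap was Gm15441 on Txnip, with 15.07% of the Txnip transcript's 100-base windows shared, but it had only 18 to 56 counts per library against 9994 to 32060 for Txnip. Whether counting used the strand is not given, so these reads cannot be told apart.

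Library totals ran from 14226342 counts, in the female of litter 3, to 24910243. Mitochondrial genes took 13.4% to 15.2% of counts in 7 libraries and 18.5% in the male of litter 4. Litter 3 stood apart in its cell type markers, in both libraries. Summed levels in CPM (each count divided by its library's scaled total) were 62466 to 62932 for 9 cardiomyocyte genes in litter 3 against 74353 to 85558 in the 6 libraries of the other litters. Myh6, Actc1, Myl2 and Actn2 were lower there, but 4 of the 9 had a positive difference, and Nppa, the natriuretic peptide gene, had 1176 and 1511 CPM against 178 to 475 (log2 2.26, SE 0.21, edgeR adjusted p = 2.14e-05). Summed levels were 32.4 to 51.8 against 108 to 243 for 8 fibroblast genes, 415 to 443 against 874 to 1119.8 for 6 mural cell genes, and 18.0 to 19.6 against 15.98 to 148 for 8 endothelial genes. Acta2 made most of the mural sum, with 369 and 343 CPM in litter 3 and 804 to 1037 elsewhere. Of the 6 mural genes 4 were lower in litter 3, and 1, Cspg4, had a positive difference (log2 0.14). The endothelial sums set litter 2 apart rather than litter 3, with 81.4 and 148 CPM in its male and female and at most 61.9 CPM in the other 6 libraries. Gene by gene, 5 of the 8 were lower in litter 3 and 0 had a positive difference (median log2 -1.44). That difference is from the mean of the other litters, litter 2 included. The 6 epicardial genes summed to 23.3 to 23.5 against 13.8 to 18.3, of which Tbx18 alone made 21.1 and 21.4 in litter 3, while the median log2 difference of the 5 tested was -0.40 and Msln was lower (-1.29, adjusted p = 0.0481). Erythroid genes summed to 185 to 532 against 98.6 to 247, and macrophage and leukocyte genes to 5.21 to 9.29 against 3.91 to 8.31. No fibroblast, mural, endothelial or erythroid marker was at 0 in any library, while the leukocyte gene Ptprc had 0 counts in 7 of 8. The skeletal muscle markers Myod1, Myf5, Pax7, Myh1 and Myh4 had 0 counts in all 8 libraries, and the whole list of 8 summed to 1.52 to 2.48 CPM. The part of these differences in the litter results below was not tested.

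**Figure D1:**
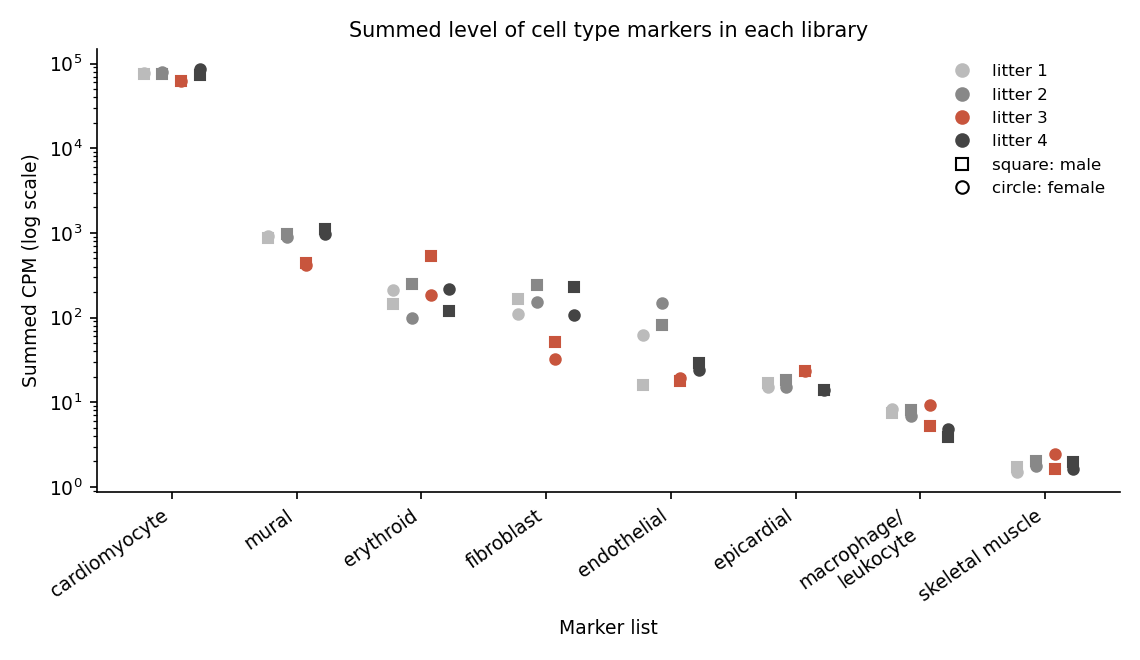
Summed CPM of 8 marker lists (horizontal axis) on a log scale, 1 point per library, coloured by litter, squares for males and circles for females. The points of litter 3 lie below all others for cardiomyocyte, mural and fibroblast markers.

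Compared per length, Txnip was the most abundant of the 9 genes and Foxo1 the least. Txnip, which encodes a protein that binds thioredoxin and restrains glucose uptake, had 256 ± 113 RPKM (CPM per kilobase of exon; SD, n = 8). Trim63 followed with 105 ± 4.77 RPKM. Then came Sesn1 with 19.2 ± 3.93, Ddit4 with 14.5 ± 3.97, Foxo4 with 14.4 ± 3.20, Fbxo32 with 13.0 ± 2.34 and Foxo3 with 9.37 ± 1.398 RPKM. Sesn3 had 2.77 ± 0.222 and Foxo1 2.36 ± 0.148 RPKM. The neighbours Ddit4, Foxo4 and Fbxo32 differ by less than their spread, while Sesn1 lay above Ddit4 and Fbxo32 above Foxo3 in all 8 libraries. With the longest transcript as the length, Trim63 had 158 and Sesn3 4.64 RPKM, and the other 7 genes moved by less than 1 SD.

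The genes differed in how much they varied. The coefficient of variation of CPM over the 8 libraries was 4.55% for Trim63, 6.27% for Foxo1 and 7.99% for Sesn3. It was 14.9% for Foxo3, 17.9% for Fbxo32, 20.5% for Sesn1 and 22.2% for Foxo4. Ddit4 reached 27.5% and Txnip 44.2%. All had over 300 counts in each library (Foxo1, the lowest, 301 to 510), and for the lowest counts counting error is a part of the spread.

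**Figure D2:**
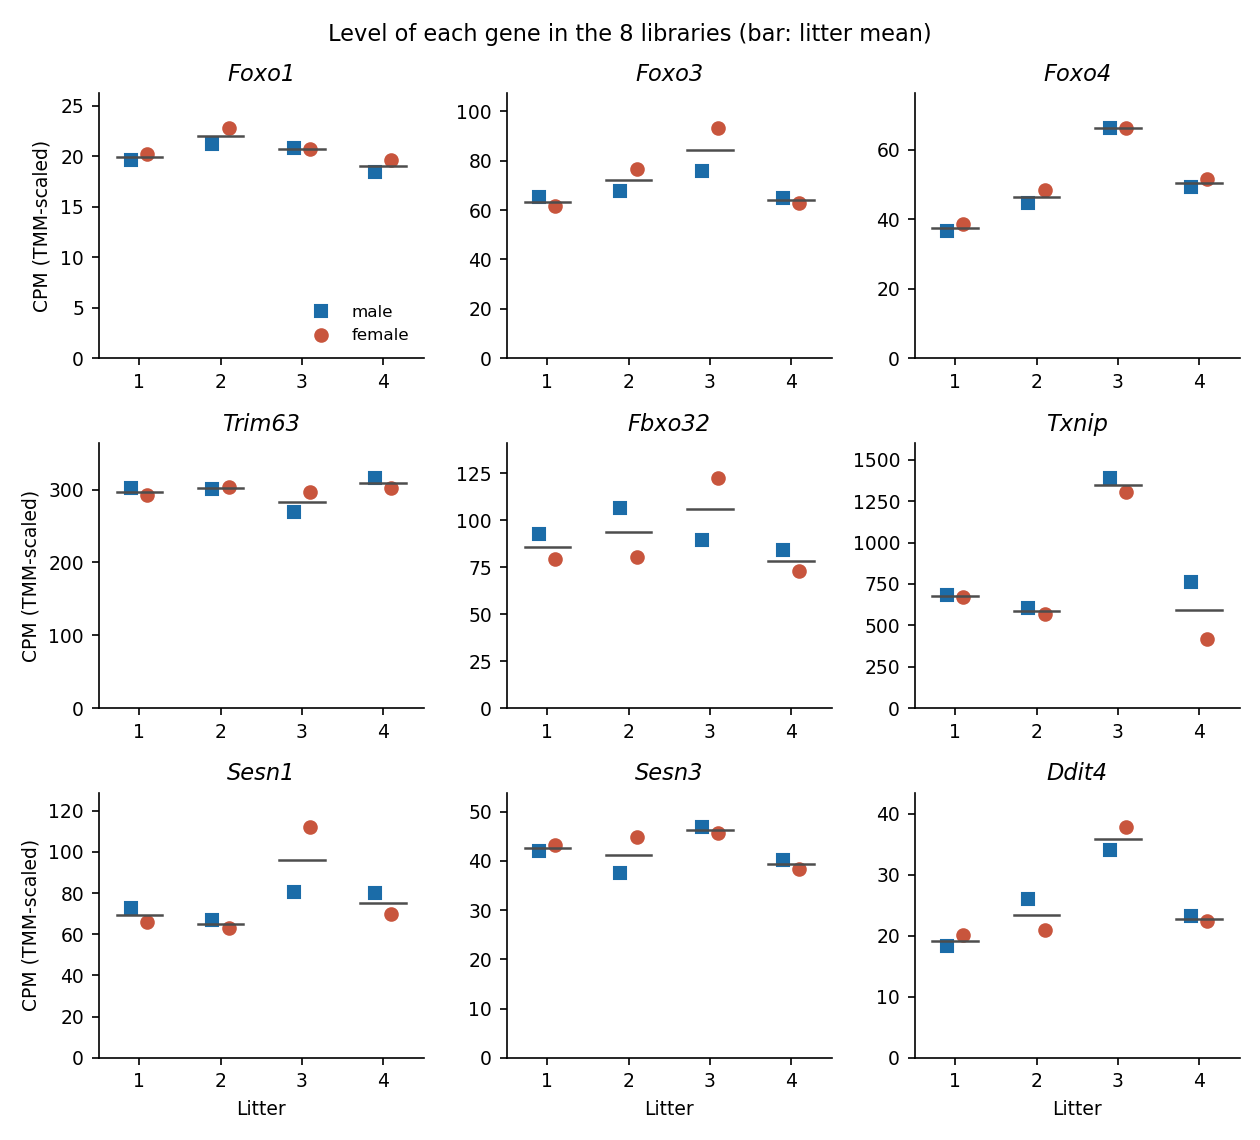
CPM of each of the 9 genes (vertical axes, from 0) by litter (horizontal axes), with squares for males, circles for females and a bar at the mean of the 2 libraries. Both libraries of litter 3 are the highest of the 8 for Foxo4, Txnip, Sesn1, Sesn3 and Ddit4, while Trim63 and Foxo1 are nearly flat.

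Litters were compared with edgeR's quasi-likelihood F test in a model with sex, where the 2 libraries of a litter are its replicates, so that p-values measure the spread between littermates. A gene passed at a Benjamini-Hochberg adjusted p-value under 0.05 over all tested genes. Foxo3, Foxo4, Txnip, Sesn1 and Ddit4 differed between litters, while Foxo1, Trim63, Fbxo32 and Sesn3 did not pass the threshold. These 5 of 9 stand against a background of 32.1% of all tested genes, so many genes of other kinds varied by litter as well. The range between the highest and the lowest litter had a median of 0.44 on the log2 scale over the 9 genes and 0.37 over all 13771. Without litter 3, 1 of the 9 passed, Foxo4, beside 13.7% of the genes tested in those 6 libraries.

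In each of the 5, litter 3 was the highest. Against the mean of the other 3 litters, 5 of 9 genes were higher in litter 3 and 0 lower, beside 13.6% and 14.8% of all tested genes. The median log2 difference was 0.34 over the 9 genes and 0.00 over all tested genes, and the former was 0.20 without the female and 0.53 without the male of litter 3. Both litter 3 libraries lay above the other 6 for 5 genes (Foxo4, Txnip, Sesn1, Sesn3 and Ddit4), as they did for 15.1% of tested genes, and below them for 0, against 16.4%. In RNA from purified cells, a change in the mix of cells and a change of RNA per cell cannot be told apart.

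Foxo1, a FoxO factor best known from liver and endothelium, was nearly even. It had 19.6, 21.2, 20.8 and 18.5 CPM in the males of litters 1 to 4 and 20.3, 22.8, 20.7 and 19.6 CPM in the females. All 8 values lie within 18.5 to 22.8 CPM, the litters lie close together, and the litter test gave an adjusted p of 0.313. Litter 3 differed from the others by 0.03 on the log2 scale (SE 0.08, adjusted p = 0.783).

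Foxo3, the factor most often tied to atrophy genes in muscle, had 65.1, 67.5, 75.8 and 64.8 CPM in males and 61.6, 76.7, 93.2 and 63.0 CPM in females. The female of litter 3 was the highest and litters 1 and 4 were low, but the male of litter 3 lay below the female of litter 2, so that these litters overlap. Litter 3 was 1.27-fold the mean of the others (log2 0.34, SE 0.08, adjusted p = 0.0068). Its step over litter 2, the next highest, was 0.22 and did not pass (adjusted p = 0.123). Without the female of litter 3 the difference of litter 3 fell to 0.20 (adjusted p = 0.209), so the call rests on that library.

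Foxo4, the X-linked factor, had close values in the 2 libraries of each litter. It had 36.7, 44.6, 66.2 and 49.4 CPM in the males of litters 1 to 4 and 38.5, 48.4, 66.3 and 51.6 CPM in the females. The litters do not overlap, and males and females give them the same order, 1, 2, 4 and 3. Litter 3 was 1.49-fold the mean of the others (log2 0.57, SE 0.06, adjusted p = 5.28e-05), and litter 1 was below the mean of the other 3 litters (log2 -0.52, SE 0.07, adjusted p = 0.000444). Among neighbours, litter 3 exceeded litter 4 by 0.39 (SE 0.08, adjusted p = 0.00471), while litter 2 over 1 (0.31, adjusted p = 0.0885) and 4 over 2 (0.12, adjusted p = 0.384) did not pass. Litter 4 over 1 did (0.43, adjusted p = 0.0063), though not without the male (0.077) or the female (0.0703) of litter 1. Foxo4 differed between the other 3 litters when litter 3 was left out (range 0.43, adjusted p = 0.0118).

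The makeup of the FoxO family moved with these values. Of the summed RPKM of the 4 mouse FoxO genes, Foxo4 took 49.5%, Foxo3 32.6%, Foxo6 9.58% and Foxo1 8.30% on average over the 8 libraries. The share of Foxo4 was 44.9%, 46.4%, 55.2% and 51.6% in litters 1 to 4, with 53.8% to 56.7% in the libraries of litter 3. The ratio of Foxo4 to Foxo1 per length was 7.92 and 7.95 in litter 3 and 4.65 to 6.64 in the other 6 libraries. Foxo6, named here after its values were seen because the shares need it, had 5.51 and 4.33 CPM in the male and female of litter 3 and 6.26 to 10.6 CPM elsewhere. Its litter 3 difference was -0.60 (SE 0.18, adjusted p = 0.0253), opposite in sign to those of Foxo3 and Foxo4. These shares depend on transcript lengths that the counts themselves do not show, and with the longest transcript the mean share of Foxo4 was 50.3%.

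**Figure D3:**
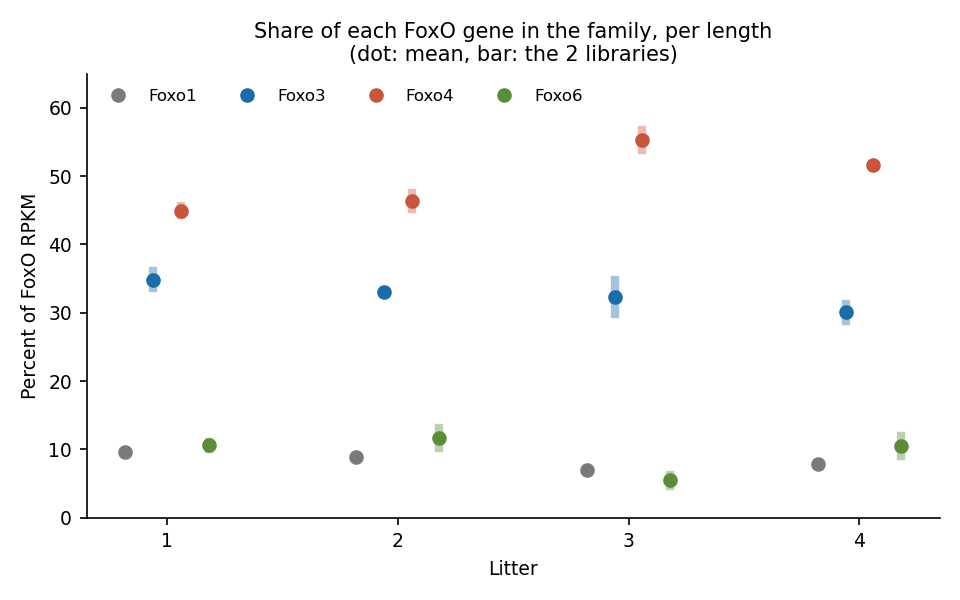
Percent of the summed FoxO RPKM taken by each of 4 FoxO genes (vertical axis) in litters 1 to 4 (horizontal axis), with dots at litter means and bars spanning the 2 libraries. Foxo4 holds the largest share in every litter, 55.2% in litter 3, and Foxo6 is lowest in litter 3 at 5.49%.

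The ubiquitin ligases, which mark muscle proteins for breakdown, did not pass in any litter comparison. Trim63, whose targets include myosin and troponin of the sarcomere, had 302, 301, 269 and 316 CPM in males and 292, 304, 296 and 302 CPM in females. The male of litter 3 was the lowest and the litters overlap. Litter 3 differed by -0.10 (SE 0.06, adjusted p = 0.238), and the range over litters was 0.13 (adjusted p = 0.472).

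Fbxo32, the substrate-binding part of an SCF ligase, had 92.5, 107, 89.4 and 84.1 CPM in males and 79.3, 80.3, 122 and 72.9 CPM in females. The female of litter 3 was the highest of all, whereas its brother lay below the male of litter 1, so litter 3 overlaps the males of litters 1 and 2. The litter test gave an adjusted p of 0.145. Over 8 other ways of processing it ran from 0.000105, with no filter on low counts, to 0.577, and it passed in 1 of them. With each litter left out in turn it was 0.0561 to 0.307. Litter 3 differed by 0.31 (SE 0.12, adjusted p = 0.0792). That difference was -0.08 without the female of litter 3 (adjusted p = 0.66) and 0.66 without the male (adjusted p = 0.000586), and it also passed without the male of litter 2 (0.38, adjusted p = 0.0274). Per length, Trim63 was 5.94 to 10.2 times as abundant as Fbxo32, with the lowest ratio in the female of litter 3, and 8.95 to 15.3 times with the longest transcript as the length.

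Txnip changed most. It had 681, 604, 1391 and 759 CPM in the males of litters 1 to 4 and 669, 569, 1304 and 419.5 CPM in the females. Both libraries of litter 3 lay above 1300 CPM and the other 6 below 760. The difference was 2.20-fold (log2 1.14, SE 0.12, adjusted p = 4.28e-05), and the step over the next litter, litter 1, was 0.99 (SE 0.15, adjusted p = 0.000713). It was 1.02 without the female of litter 3 and 1.25 without the male, past the threshold both times. Litter 4 was lower than the others (log2 -0.50, SE 0.13, adjusted p = 0.0337), but not without its female (-0.13, adjusted p = 0.314), without the female of litter 1 (adjusted p = 0.0585), without litter 3 (adjusted p = 0.501) or with DESeq2 (adjusted p = 0.102). With litter 3 left out, the range over the remaining litters was 0.24 (adjusted p = 0.416).

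The sestrins bind the GATOR2 complex and thereby hold TORC1 back when leucine is scarce. Sesn1 had 72.8, 66.9, 80.3 and 80.1 CPM in males and 65.8, 63.1, 112 and 69.9 CPM in females. The female of litter 3 stood far above the rest, while the males of litters 3 and 4 were level. Litter 3 was 1.37-fold the mean of the others (log2 0.46, SE 0.11, adjusted p = 0.00786). Without its female the difference was 0.13 (adjusted p = 0.376), so this call too rests on that library, and with DESeq2 the adjusted p was 0.0505. The step of litter 3 over litter 4 did not pass (0.35, adjusted p = 0.0811).

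Sesn3 had 42.0, 37.6, 46.8 and 40.3 CPM in males and 43.3, 44.7, 45.7 and 38.4 CPM in females. Litter 3 held the top places, but the female of litter 2 was close to them. The difference was 0.18 (SE 0.08, adjusted p = 0.102). It passed without the female of litter 2 (0.22, adjusted p = 0.0375).

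Ddit4 (REDD1) is induced by hypoxia, glucocorticoids and energy stress and lowers TORC1 activity through the TSC complex. It had 18.3, 26.0, 34.1 and 23.3 CPM in males and 20.1, 21.003, 37.8 and 22.4 CPM in females. Both litter 3 libraries were clear of the other 6. The difference was 1.65-fold (log2 0.72, SE 0.09, adjusted p = 0.000163), and it was 0.61 without the female and 0.84 without the male of litter 3, past the threshold in both. Litter 3 exceeded litter 2, the next, by 0.61 (SE 0.11, adjusted p = 0.00331). Litter 1 was lower than the others (log2 -0.48, SE 0.10, adjusted p = 0.00748), though not without its male (adjusted p = 0.186) or without litter 3 (adjusted p = 0.129).

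**Figure D4:**
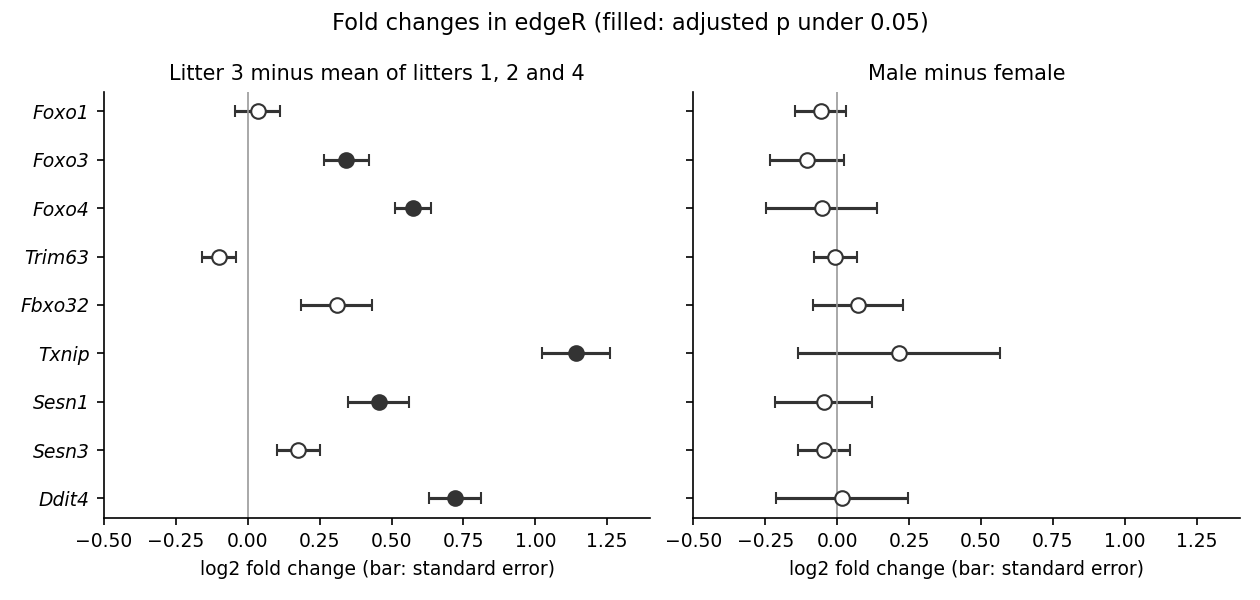
Log2 fold changes of the 9 genes with standard errors, for litter 3 against the mean of litters 1, 2 and 4 (left) and for male minus female (right), filled where the edgeR adjusted p-value was under 0.05. On the left 5 genes are filled, with Txnip farthest at 1.14, and on the right 0.

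The other single-litter comparisons touched few of the 9 genes. Litter 1 was lower for 2 of 9 (Foxo4 and Ddit4), beside 5.41% of tested genes. Litter 2 differed for 0 of 9, beside 4.18% of tested genes, although Txnip came to an unadjusted p of 0.00394 (adjusted p = 0.0722). Litter 4 was lower for 1 of 9, Txnip, beside 5.8%. Among pairs of litters, litter 3 was higher than litter 1 for 5 of 9 (12.2% of tested genes), than litter 2 for 4 (8.92%), and litter 4 was lower than litter 3 for 4 (10.3%). Of the pairs without litter 3, litter 4 against 1 gave 1 gene, Foxo4 (5.52% of tested genes higher). Litter 2 against 1 and litter 4 against 2 gave 0, against 0.828% and 6.54% of tested genes in either direction. All these comparisons share libraries and are not independent.

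Genes around the pathway were taken from 6 lists, chosen with earlier results of these data known. Some lists share genes, such as Pdk4 and Eif4ebp1. The counts of the lists stand against 32.1% of all tested genes that differed between litters, and 13.6% higher and 14.8% lower in litter 3. They describe these libraries and are no test of the lists. In some lists, genes outside the naming rule are given after their values were seen, to show the other direction. The list of 18 regulators of FoxO activity also holds Foxo6, which is itself a FoxO factor. Of the 18, 11 differed between litters (61.1% against 32.1%), Foxo6 among them. In litter 3, 9 were higher and 3 lower (median log2 difference 0.24, against 0.00 over all tested genes). Igf1r, the receptor for insulin-like growth factor, had 126 and 157 CPM in the male and female of litter 3 against 85.0 to 113 elsewhere (log2 0.50, SE 0.09, adjusted p = 0.0024). Sirt1, a deacetylase that acts on FoxO proteins, had 37.0 and 39.7 CPM against 26.7 to 30.4 (log2 0.43, SE 0.07, adjusted p = 0.00115). Pik3r1 and Pdpk1, a subunit of PI3 kinase and the kinase that activates Akt, were higher by 0.38 (adjusted p = 0.00283) and 0.25 (adjusted p = 0.0109). The 3 lower genes were Foxo6, given above, and the kinase genes Akt1 (-0.21, adjusted p = 0.0155) and Akt2 (-0.17, adjusted p = 0.0483). The list holds genes of opposite effect on FoxO, and its count does not describe FoxO activity.

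Of 21 other genes known as FoxO targets, 11 differed between litters (52.4% against 32.1%), and 9 were higher (13.6% of all tested genes) and 0 lower (14.8%) in litter 3 (median 0.19). Pdk4, the kinase that shuts off pyruvate dehydrogenase, had 511 and 555 CPM in litter 3 against 262 to 382 in the other 6 libraries (log2 0.73, SE 0.09, adjusted p = 0.00011). Map1lc3b, which encodes a protein of the autophagosome membrane, had 166 and 172 CPM against 102 to 146 (log2 0.49, SE 0.05, adjusted p = 7.28e-05). Klhl24 rose by 0.56 (adjusted p = 0.000169) and Cdkn1b, an inhibitor of the cell cycle, by 0.50 (adjusted p = 0.000434). For all 4, both litter 3 libraries lay above the other 6.

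The other 12 ubiquitin ligases of muscle were mixed. Of these, 7 differed between litters (58.3% against 32.1%). In litter 3, 2 were higher and 2 lower (median -0.01), near the 13.6% and 14.8% of all tested genes. Nedd4 had 1318 and 1249.9 CPM in litter 3 against 1056 to 1104 (log2 0.25, adjusted p = 0.0048), and Traf6 was higher by 0.40 (adjusted p = 0.00418). Stub1, the co-chaperone ligase CHIP, was lower by -0.34 (adjusted p = 0.00326) and Fbxo40, which targets IRS1, by -0.21 (adjusted p = 0.0318). Trim63 and Fbxo32 thus stood in a group without a common direction.

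Txnip is known as a target of MondoA (encoded by Mlxip), a transcription factor that senses glucose phosphates. Of 10 genes of MondoA and the thioredoxin system, 3 differed between litters, a share of 30% near the 32.1% of all tested genes, and 2 were higher and 2 lower in litter 3 (median -0.12). Arrdc2, an arrestin relative of Txnip, had 8.68 and 11.1 CPM against 5.18 to 7.57 (log2 0.66, SE 0.14, adjusted p = 0.00529). Mlxipl, which encodes the related factor ChREBP, was lower by -0.47 (SE 0.11, adjusted p = 0.00999), with 20.8 and 24.8 CPM in litter 3 but 20.6 CPM in the male of litter 4. Txn2, the thioredoxin of mitochondria, was lower by -0.19 (adjusted p = 0.0238). Among the other arrestin relatives, Arrdc4 was higher by 0.55 (adjusted p = 0.0152), with 46.7 and 46.3 CPM against 25.3 to 42.2, and Arrdc3 was at 0.05 (adjusted p = 0.743).

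Of 23 genes of TORC1 nutrient sensing, 22 were tested and 9 differed between litters (40.9% against 32.1%), with 6 higher and 2 lower in litter 3 (median 0.15; 13.6% and 14.8% of all tested genes). Deptor, which binds and inhibits mTOR, had 8.81 and 9.63 CPM against 3.40 to 6.36 (log2 0.81, SE 0.14, adjusted p = 0.00172). Mios, a part of the GATOR2 complex that sestrins bind, was higher by 0.40 (adjusted p = 0.0027) and Prkaa2, a catalytic subunit of AMPK, by 0.28 (adjusted p = 0.00437). Rictor, counted in this list but a subunit of TORC2, the other complex of mTOR, was higher by 0.36 (adjusted p = 0.00217). Rptor, the matching subunit of TORC1, was at -0.01 (adjusted p = 0.941). The 2 lower genes were Mtor, the kinase of the complex (-0.36, adjusted p = 0.00692), and Nprl2, a part of GATOR1 (-0.35, adjusted p = 0.0225).

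Glucocorticoids are known to induce Trim63, Fbxo32 and Ddit4 in muscle. Of 11 glucocorticoid-responsive genes, 6 differed between litters (54.5% against 32.1%), and 5 were higher (13.6% of all tested genes) and 0 lower (14.8%) in litter 3 (median 0.25). Fkbp5 had 21.1 and 24.8 CPM in litter 3 against 5.42 to 10.97 (log2 1.503, SE 0.10, adjusted p = 1.61e-06), and Mt2 had 39.0 and 39.8 CPM against 10.5 to 18.9 (log2 1.51, SE 0.10, adjusted p = 1.61e-06). Tsc22d3 (GILZ) was higher by 0.25 (adjusted p = 0.0153), and its litter 3 libraries, at 87.5 and 94.7 CPM, came close to the male of litter 4 at 86.4. Pdk4 is in this list too. In the 6 lists, 0 genes passed in the comparison of the sexes, with or without litter as a block.

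**Figure D5:**
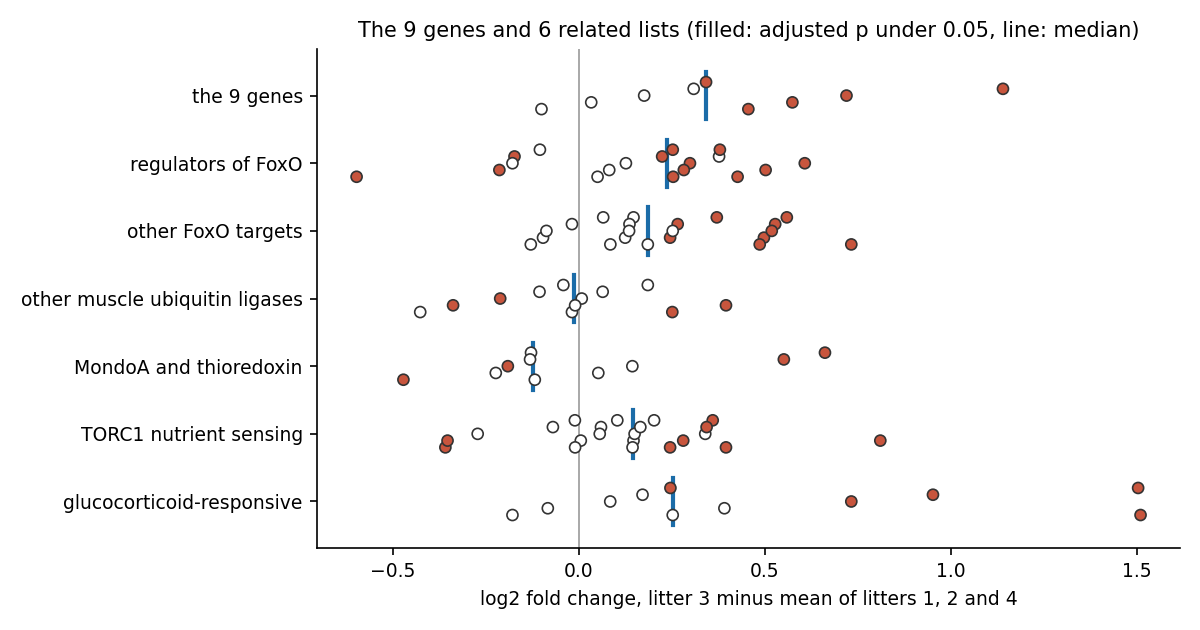
Log2 difference of litter 3 from the mean of litters 1, 2 and 4 (horizontal axis) for the 9 genes and 6 related lists, 1 dot per tested gene, filled where the edgeR adjusted p-value was under 0.05, with a blue line at the median. The medians run from -0.12 for the MondoA and thioredoxin list to 0.34 for the 9 genes.

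For each gene that differed between litters, the 3 tested genes with the closest profile over the 8 libraries were taken by the root mean square difference of centred log2 CPM. For Foxo4 they were Pink1, Ehd1 and Ctdsp2, at 0.06 log2 units each, against an SD of Foxo4 itself of 0.31. Pink1, a kinase of mitochondrial quality control, had 361 to 393 CPM in litter 3 and 217 to 317 CPM elsewhere. For Foxo3 they were Gatsl2, a gene of the TORC1 list now called Castor2, followed by Trp53 and Dennd1a (0.05 to 0.06 log2 units against an SD of 0.20).

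For Txnip the nearest were Enox1, Hacd4 and Dpyd, at 0.13 to 0.17 log2 units against an SD of 0.59, and Enox1 was at a low level, with 0.378 to 1.26 CPM. Sesn1 was followed most closely by Zfp120, Neil1 and Tmbim1 (0.07 log2 units each, SD 0.26), and Ddit4 by Col4a6, Sepp1 and Arrdc2 (0.06 to 0.07, SD 0.37). With 8 libraries, in which litter 3 is the highest for all 5 genes, such closeness describes these libraries only.

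No difference between the sexes passed the threshold for the 9 genes. In edgeR's quasi-likelihood test, 0 of 9 passed, beside 6 of 13771 genes (0.0436%), and 0 of 9 had an unadjusted p-value under 0.05, beside 2.22% of tested genes. Every adjusted p-value of the 9 was 1. With litter as a block 0 of 9 passed, beside 29 genes (0.211%), and 1 had an unadjusted p-value under 0.05, beside 11.6%. DESeq2 called 0 of 9 as well, beside 9 genes (0.0654%). The log2 differences, male minus female, ran from -0.11 for Foxo3 (SE 0.13) to 0.21 for Txnip (SE 0.35).

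The single gene at an unadjusted p-value under 0.05 with the block was Txnip (log2 0.26, SE 0.11, edgeR adjusted p = 0.395). The male exceeded the female in all 4 litters, by 0.03, 0.09, 0.09 and 0.86 on the log2 scale in litters 1 to 4. The last value belongs to the litter whose male had 18.5% mitochondrial counts, and leaving litter 4 out took the difference without the block from 0.21 to 0.07. With mitochondrial genes left out before scaling it was 0.21, but that step acts on the scaling and does not address the state of that library. Without the male of litter 3 the difference was -0.12, and without the female of litter 3 it was 0.63. With the block, 5 of 8 fibroblast markers were higher in males, among them Dcn (adjusted p = 0.000315) and Col1a1 (adjusted p = 0.00196), while 0 passed without it. The sum of the 8 fibroblast markers was higher in the male of all 4 litters. Of 8 endothelial markers 1 passed with the block, Cldn5, which was lower in males (adjusted p = 0.0259), and 0 passed without it. The part of these markers in the Txnip values was not tested. Foxo4, although X-linked, was lower in males in all 4 litters by small amounts, from -0.12 to -0.00, with a log2 difference of -0.05 (SE 0.19) without the block and -0.06 (SE 0.05) with it. The other 7 genes had mixed signs over litters. For Fbxo32 and Sesn1 the male was higher in 3 litters and lower in litter 3, by -0.45 and -0.48.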

How the data were processed

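RNA of 8 samples was sequenced as single-end reads from a stranded library kit, per the labels' protocols. Alignment with STAR 2.7.3a to mm10 is named in the submitters' processing notes; the counting program, annotation and strand setting are not given in the sources used here. The authors deposited 1 table of raw counts per gene symbol, with 14226342 to 24910243 counts per library and 0 entries without a name.

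Counts were analysed in R 4.3.3 with edgeR 4.0.16 (filterByExpr on sex, TMM scaling, quasi-likelihood F tests, Benjamini-Hochberg adjustment over 13771 genes, threshold 0.05), and with DESeq2 1.42.0 as an alternative. Sex was tested without a block, and litters in a model with sex. The standard error is the log2 fold change over the square root of F. RPKM used union exon lengths of GENCODE M21, and log2 CPM a prior count of 2. The labels give each sample's number as its litter, so a number marks a brother and a sister. With sex means removed, pairs of a litter correlated across genes at 0.506, 0.503, 0.696 and 0.367, and pairs of different litters at -0.482 to 0.270.

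All 9 genes are named, with up to 4 genes per list by smallest adjusted p in the litter test and 3 similar genes for each of the 9 that passed it. Members and lists were chosen with earlier results of these data known. Older symbols in the table (Gatsl2, Gatsl3) were matched for 2 list genes. The models were tested on simulated counts. When each simulated gene kept its own noise, false calls of the litter test exceeded the nominal rate and fell on the noisiest genes; with noise following the trend, a simulation adopted after that was seen, they did not. The litter calls, and the share of all genes called by litter, may thus hold more false calls than the threshold implies. Alternatives covered scaling, filtering, depth, mitochondrial genes, tool, block, and leaving out libraries or litters.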

Additional observations from a re-analysis of the deposited data

Results flagged for a closer look

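Among the 4 females, the library of litter 3 stood far from the other 3 for 3 genes, by the gap between the most extreme library and its nearest neighbour relative to the whole range. Fbxo32 was at 122 CPM against 72.9 to 80.3 CPM, Sesn1 at 112 CPM against 63.1 to 69.9 CPM, and Ddit4 at 37.8 CPM against 20.1 to 22.4 CPM. For Ddit4 the male of litter 3 was the highest male as well, at 34.1 CPM. For Fbxo32 and Sesn1 it was not set apart from the other males, at 89.4 and 80.3 CPM. This female library had the smallest total of the 8, 14226342 counts, and 14.97% mitochondrial counts, within the range of the others. The 9 genes in 2 sexes gave 18 groups, of which about 0.9 would be past the limit by chance if the groups were independent. They share libraries, and all 3 past the limit are from this same female library, so the number does not measure an excess. Each female is also of another litter, so these gaps cannot be told apart from the litter 3 differences above.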

How the results depend on the processing

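Outside of libraries left out, 323 of 335 values for the 9 genes kept their direction, their side of the threshold and, for levels, their size within 1 SD. With DESeq2, Sesn1 no longer passed (adjusted p in the litter test 0.163, litter 3 against 1 0.133 and against 2 0.0715). Fbxo32 passed in litter 3 with library size alone (adjusted p = 0.0436) and with no filter on low counts (0.000248; litter test 0.000105), as did Sesn3 with library size alone (0.0431). Foxo1 in litter 3 turned to -0.019 with libraries thinned to the smallest total. The replicate block, which uses the pairing by litter, gave 29 genes for sex in place of 6 and changed no call of the 9. With no filter, litter 2 against the others gave 1249 genes and with a mean of at least 50 counts 345 (575 in the tests reported), litter 2 against 1 gave 702 (114) and litter 4 against 2 gave 1549 (901); the cause was not tested.

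Leaving out each library or litter gave 5 to 8 genes for sex and 1898 to 4586 for litter (1898 without litter 3), with 1 to 6 of the 9 past the threshold (1 without litter 3, 3 without its female) and 3 to 6 higher in litter 3. Single litters against the others gave 359 to 2906, 153 to 1407, 1704 to 4177 and 322 to 1984 genes in litters 1 to 4. Pairs gave 2 to 279 (2 against 1), 1639 to 3775 (3 against 1), 330 to 1907 (4 against 1), 1300 to 3041 (3 against 2), 209 to 1108 (4 against 2) and 1373 to 2932 (4 against 3). Sex differences, none past the threshold, changed sign in some of these: Foxo3 -0.18 to 0.019, Foxo4 -0.23 to 0.083, Trim63 -0.043 to 0.039, Fbxo32 -0.055 to 0.28, Txnip -0.12 to 0.63, Sesn1 -0.15 to 0.17, Sesn3 -0.11 to 0.0099 and Ddit4 -0.16 to 0.26. In litter 3, Foxo1 ranged from -0.010 to 0.093 and Fbxo32 from -0.075 to 0.66.

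Fits without a library of a litter assume that the lone one varies like the others. With 2 libraries per litter, and with litters that stand apart in markers (litter 3 in several lists, litter 2 in endothelial genes), litter, dissection and cell mix cannot be told apart. Foxo1 had the fewest counts, 301 to 510 per library.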
